A study of Mus musculus with 12 samples.

Results

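The contact profile of an enhancer of Tbx3 was described in mouse embryonic stem (ES) cells and in mouse embryonic fibroblasts (MEFs) by 4C-seq, which counts the fragments of the genome that were ligated to 1 chosen site, the viewpoint, in fixed nuclei. The profile is made of all 1750 windows listed for this viewpoint on chromosome 5, of 17305 windows listed for the 3 viewpoints of the series (the others are a Mycn enhancer, with 7348, and the Ets1 promoter, with 8207). The 4 libraries of this viewpoint, of 12 in the series, were 2 from ES cells and 2 from MEFs. ES replicate 1 was labelled V6.5 and ES replicate 2 carried no line name. ES cells were grown in 2i medium. MEFs came from embryos at embryonic day 13.5 that carried 1 copy each of an Oct4-GFP reporter, a cassette of the reprogramming factors (OKSM) and rtTA3, the activator that switches this cassette on with doxycycline. They were cultured in DMEM, and their labels name no induction for these libraries. The cell types therefore differ in genotype and medium as well as in identity, and these cannot be told apart here. Chromatin was cut with DpnII, ligated, cut with Csp6I and ligated again. Nothing in the labels says that replicates were separate cultures, so p-values speak only of these libraries, and their spread may be technical. For windows and loci, the main test takes the spread largely from all windows or loci tested together, many of which overlap. Small p-values there rest on this shared spread more than on the 2 libraries per cell type at the window or locus itself.

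An enhancer is a stretch of DNA that raises transcription of a gene at a distance, and looping brings it close to that gene's promoter in nuclear space. Contacts of any site fall with distance and stay mostly within the domain that holds it. Tbx3 encodes a T-box transcription factor that represses and activates developmental genes. It is part of the network that sustains self-renewal of naive ES cells, and later acts in limb, heart and mammary development. Its neighbour Tbx5, a related T-box gene, acts in forelimb and heart. Med13l, on the other side of a long stretch without protein-coding genes, encodes a subunit of the Mediator kinase module. Rbm19 encodes an RNA-binding protein of ribosome assembly, and Lhx5 a homeodomain factor of the developing brain.

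No coordinate of the viewpoint is given in the labels, so it was placed at chr5:119582001-119592000 (mm10), the 10 kb window in which the mean of the 4 libraries was highest. ES replicate 1 and MEF replicate 1 had their own maximum there, ES replicate 2 at the window that starts at 119578001, and MEF replicate 2 at the one that starts at 119586001. The window overlaps 0 annotated genes. AW549542 ends 1.64 kb below it, and Tbx3os1, a long non-coding RNA gene named for the strand opposite Tbx3, begins 19.3 kb above it and runs from 119611253 to 119671508. Tbx3 itself spans chr5:119670534-119684724, so about 80 kb separate enhancer and gene. Gm16063 and Gm16064 lie within the bounds of Tbx3os1, and Tbx3os2 lies from 119685088 to 119691218, just past Tbx3.

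Values are counts per 1000 of a library's total count. Totals were 6507 in ES replicate 1, 379 in ES replicate 2, 2871 in MEF replicate 1 and 5342 in MEF replicate 2. A single count is therefore worth 0.154, 2.64, 0.348 and 0.187 per 1000 in these libraries, and 3 counts, the limit that a count of 0 allows, are worth 0.461, 7.92, 1.04 and 0.562. ES replicate 2 had counts in 798 of the 1750 windows, against 1743, 1618 and 1723 in the others. Over the windows that do not overlap, a chi-square test of counts found no difference between the ES replicates (chi-square 9.01 on 11 degrees of freedom), but it found none between ES replicate 2 and either MEF library (12.4 and 6.39 on 9 each), so at 379 counts it cannot tell libraries apart. The MEF replicates differed (235 on 92). ES replicate 2 was kept as a library, and the counts of called windows, loci and bands are also given without it. Of the listed windows, 1118 had counts in 3 libraries and 632 in all 4. A window with counts in fewer libraries was not analysed here, so contacts held by 1 cell type alone may be missing.

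Promoter sequences near the contacts that the results turn on are shown here, because the loci of the first pair rose in ES cells and the locus of the third, on the opposite side of the viewpoint, did not pass the test. They are from RefSeq (GRCm38.p6), 250 bases before to 50 bases after the start of the gene, 5′ to 3′ on the gene's own strand, and 14 of the 26 listed genes matched an entry. Capitals mark GATC, the DpnII site at which contact fragments begin, GTAC, the Csp6I site, and CACCC (or GGGTG on the other strand), core letters of sites bound by Klf factors. No searched motif overlaps another. Tbx3os2 is at chr5:119691169-119691468 on the minus strand, Gm16064 at chr5:119645887-119646186 on the plus strand and Gm31314 at chr5:119527908-119528207 on the minus strand.
Tbx3os2: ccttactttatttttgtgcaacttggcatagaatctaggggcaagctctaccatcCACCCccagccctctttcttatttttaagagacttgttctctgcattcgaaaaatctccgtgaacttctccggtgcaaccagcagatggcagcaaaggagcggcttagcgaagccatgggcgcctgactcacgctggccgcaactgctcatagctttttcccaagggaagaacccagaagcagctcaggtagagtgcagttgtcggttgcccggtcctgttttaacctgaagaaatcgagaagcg
Gm16064: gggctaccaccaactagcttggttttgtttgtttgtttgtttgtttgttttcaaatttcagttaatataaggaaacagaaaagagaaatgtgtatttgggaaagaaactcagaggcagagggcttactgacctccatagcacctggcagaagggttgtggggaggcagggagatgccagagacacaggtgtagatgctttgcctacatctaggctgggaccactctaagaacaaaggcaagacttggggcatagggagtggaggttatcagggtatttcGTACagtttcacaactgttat
Gm31314: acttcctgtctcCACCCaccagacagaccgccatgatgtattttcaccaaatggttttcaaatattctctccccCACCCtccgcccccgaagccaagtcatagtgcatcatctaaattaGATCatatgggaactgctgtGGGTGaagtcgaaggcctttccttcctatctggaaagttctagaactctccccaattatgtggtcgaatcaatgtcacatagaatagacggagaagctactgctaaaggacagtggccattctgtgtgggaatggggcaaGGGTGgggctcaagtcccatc
The Tbx3os2 promoter held 1 CACCC and 0 sites of either enzyme. The Gm16064 promoter held 1 GTAC and 0 of the others, and that of Gm31314 held 1 GATC and 4 CACCC. Of 32851 promoters of the same length, 48.0% held GATC, 35.8% GTAC and 57.5% CACCC, so these letters are common.

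The enhancer met the Tbx3 gene more often in ES cells than in MEFs. The filter (2 or more libraries at 1 or above) left 1228 windows. Of these, 21 were higher in ES cells and none in MEFs at an adjusted p under 0.05 (limma with an intensity trend on log2(value + 1), Benjamini-Hochberg), 1.71% of those tested. Called windows overlap each other, so they come down to 2 regions. The first, chr5:119655001-119692000, held 18 of the 21 and covered the higher-coordinate end of Tbx3os1, part of Gm16064, all of Tbx3 and Tbx3os2. At its window of smallest p, chr5:119671001-119681000, which lies over Tbx3 and 89 kb from the viewpoint, ES replicate 1 had 24.4 per 1000 and ES replicate 2 had 29.0, against 6.27 in MEF replicate 1 and 4.31 in MEF replicate 2. Both ES libraries lay above both MEF libraries, with no overlap. They rest on 159, 11, 18 and 23 counts. ES exceeded MEF by 2.15 on the log2 scale (SE 0.35, n = 2 and 2, limma adjusted p = 9.9e-07; edgeR on the recovered counts, adjusted p = 5.0e-08), and the ratio of the means was 5.06.

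**Figure D1:**
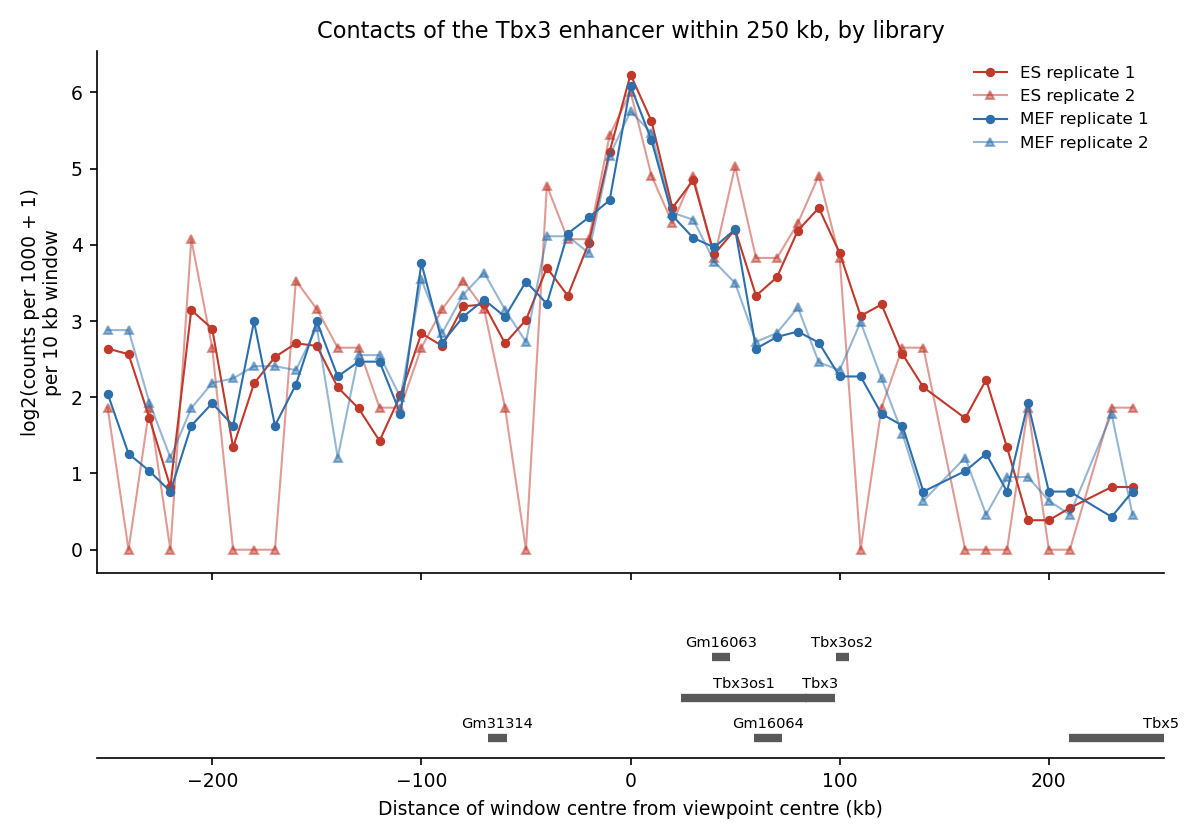
Level per 10 kb window that does not overlap its neighbours, as log2(counts per 1000 + 1), against distance from the viewpoint in kb, for the 4 libraries (ES red, MEF blue, circles replicate 1, triangles replicate 2), with gene positions beneath. The ES lines stay above the MEF lines over Tbx3 at 80 to 100 kb, while on the lower-coordinate side the lines cross, and ES replicate 2 drops to 0 in several windows.

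Stepping outward from the viewpoint in windows that do not overlap, the cell types were mixed up to 50 kb and separated from 60 to 100 kb. In the window 20 kb away, at the near end of Tbx3os1, the values were 21.4 and 18.5 in ES and 19.9 and 20.4 in MEF, so the groups overlapped. At 30 kb, within Tbx3os1, both ES libraries lay above both MEF libraries, at 27.8 and 29.0 against 16.0 and 19.1, but the window did not pass the test (log2 difference 0.67, SE 0.27, limma adjusted p = 0.26). At 40 kb, over Gm16063, the groups overlapped at 13.7 and 13.2 against 14.6 and 12.7. At 50 kb, also over Gm16063, they overlapped at 17.37 and 31.7 against 17.42 and 10.3, with ES replicate 1 just below MEF replicate 1. From the next window outward the groups no longer overlapped. At 60 kb the values were 9.07 and 13.2 against 5.22 and 5.62, and at 70 kb 10.9 and 13.2 against 5.92 and 6.18. Both windows were higher in each ES library but did not pass the test (limma adjusted p = 0.40 for each).

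The next 3 windows passed. At 80 kb, over the far end of Tbx3os1 and the near end of Tbx3, values were 17.2 and 18.5 in ES and 6.27 and 8.05 in MEF (log2 difference 1.22, SE 0.36, limma adjusted p = 0.043). At 90 kb, within Tbx3, they were 21.4 and 29.0 against 5.57 and 4.49 (2.11, SE 0.36). At 100 kb, over the far end of Tbx3 and Tbx3os2, they were 13.8 and 13.2 against 3.83 and 4.12 (1.54, SE 0.45, adjusted p = 0.033). In both MEF libraries the level at 90 kb was below that at 80 kb, whereas in both ES libraries it was above. At 110 kb, past Tbx3os2, the values were 7.38 and 0 in ES and 3.83 and 6.93 in MEF, and the groups overlapped.

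The other region called by limma, chr5:119370001-119382000, lies 212 kb below the viewpoint with no annotated gene and had 3 windows. At its best window the values were 9.68 and 15.8 in ES and 2.44 and 3.56 in MEF, from 63, 6, 7 and 19 counts, with no overlap between groups. ES exceeded MEF by 1.76 on the log2 scale (SE 0.49, limma adjusted p = 0.028), but edgeR gave an adjusted p of 0.050, above the threshold before rounding, and the call was lost under 10 alternatives, among them without ES replicate 2 (adjusted p = 0.35), without MEF replicate 1 (0.61) and without MEF replicate 2 (0.31).

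The count of called windows depended on single libraries and on how their spread was estimated. It was 12 without ES replicate 2, 8 without MEF replicate 1, 7 without MEF replicate 2 and 570 without ES replicate 1, the setting in which ES replicate 2 stood alone for its group. Of the 12 called without ES replicate 2, 3 were higher in MEFs, as were 3 of the 12 called with the ES libraries summed and 445 of the 570. Without the intensity trend no window passed (adjusted p = 0.41 for the Tbx3 window), although 147 had an unadjusted p under 0.05. The Tbx3 window itself kept its call under every other alternative that tested it, including each library left out and DESeq2.

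With all 4 libraries apart, limma called no window higher in MEFs and had 60 such windows at an unadjusted p under 0.05. edgeR called 37 windows (3.01% of 1228), 9 of them higher in MEFs (0.733%) and 28 higher in ES cells (2.28%). Of the same 1228, limma-voom called 36, with 10 higher in MEFs and 26 in ES cells, and DESeq2 called 4, all higher in ES cells. The median log2 difference over all tested windows was -0.32, and 64.5% were below 0, so calls for ES cells stand against a slight shift the other way. Without ES replicate 2, which had counts in 798 of the 1750 windows, the median was -0.20 and 57.9% were below 0. The part of depth in this shift was not tested. The edgeR calls for MEFs formed 2 regions in the interval without protein-coding genes, chosen for mention after their values were seen. In chr5:118876001-118886000, 706 kb below the viewpoint, ES libraries had 1 and 0 counts and MEF libraries 12 and 26 (edgeR adjusted p = 0.021; limma 0.30). Another window of this region, chr5:118884001-118894000, had a limma adjusted p of 0.24 with all libraries, 0.016 without ES replicate 2 and 0.020 with the ES libraries summed. In chr5:118949001-118959000, over 4930413E15Rik, a long non-coding RNA gene, ES libraries had 2 and 0 and MEF libraries 9 and 31 (0.040; limma 0.39). In each, both ES libraries lay below both MEF libraries, and the 0 of ES replicate 2 allows up to 7.92 per 1000, which is above both MEF levels. edgeR also called a region over the viewpoint itself, chr5:119574001-119589000, higher in ES cells, with 56.9 and 55.4 against 36.6 and 32.0 at its best window (adjusted p = 0.0046; limma 0.062).

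Each gene's locus was then read as the mean of all listed windows over the gene with 10 kb on each side. Of 26 genes listed around the viewpoint, 24 had windows and 9 passed the filter. Of these 9, 5 rose in ES cells, 0 rose in MEFs, and 4 did not pass the test. All 34 loci tested gave 14.7% called, and these 5 were the only calls among them. Without ES replicate 2, 6 loci were called, among them Gm10390, a non-coding gene within the bounds of Rbm19 that was higher in MEFs (log2 difference -0.65, limma adjusted p = 0.0069). It was also called with the ES libraries summed (0.028), and without ES replicate 1 the neighbours Gm31773 and Gm38554, between Tbx5 and Rbm19, were called higher in MEFs (0.021 and 0.020). The median log2 difference was 0.57 over the 9 and -0.04 over the 34. The 0.57 is the value of Fbxo21, which did not pass the test. At that locus ES replicate 2 stood at 2.64, the worth of 1 count. The 5 loci adjoin or overlap and share windows, so they are not 5 separate observations. edgeR called the same number, 5, all higher in ES cells.

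Tbx3 stood at 14.3 and 14.0 per 1000 in the ES libraries and at 5.11 and 5.43 in the MEF libraries. The ES libraries lay above the MEF libraries with no overlap, and the spread within each cell type was small beside the gap. The difference was 1.28 on the log2 scale (SE 0.16, limma adjusted p = 8.1e-10; edgeR 1.1e-08), a ratio of means of 2.69. Tbx3os2, a non-coding gene past the far end of Tbx3, stood at 13.3 and 10.6 against 4.69 and 4.77 (1.16, SE 0.18, limma adjusted p = 1.5e-07), again without overlap.

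Between enhancer and gene the differences were smaller. Gm16064, a long non-coding RNA gene 54.1 kb from the viewpoint window, had 14.6 and 18.5 in ES and 8.20 and 7.20 in MEF (log2 difference 1.01, SE 0.13, limma adjusted p = 8.1e-10). Tbx3os1, which begins nearer, had 18.0 and 19.5 against 11.8 and 11.9 (0.62, SE 0.10, adjusted p = 4.4e-07). Gm16063, 33.9 kb away, had 17.2 and 20.4 against 13.3 and 12.3 (0.52, SE 0.10, adjusted p = 9.8e-06). None of these 3 overlapped between cell types.

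Tbx3, Tbx3os2 and Gm16064 kept their calls when any 1 library was left out. Tbx3os1 lost its call without MEF replicate 1 (adjusted p = 0.10) and without MEF replicate 2 (0.098), as did Gm16063 (0.12 and 0.33), which also lost it with DESeq2 (0.084) and with a 5 kb flank (0.13). Tbx3os2 missed the threshold when libraries were median-centred (0.080). All 5 calls were lost without the intensity trend, where Tbx3 had an adjusted p of 0.18, and Gm16064 also missed the threshold with a 5 kb flank (0.090).

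The genes farther out were met little in either cell type. Tbx5, 205 kb away on the Tbx3 side, stood at 0.567 and 1.23 in ES and 1.42 and 1.04 in MEF, and the groups overlapped (limma adjusted p = 0.81). Rbm19 stood at 0.472 and 1.76 against 1.03 and 0.929, and Med13l at 0.900 and 2.85 against 1.18 and 1.01. In both, ES replicate 1 was the lowest and ES replicate 2, where 1 count is worth 2.64, was the highest. Fbxo21, which encodes an F-box protein, was the fourth listed locus that missed the test, with libraries between 0 and 2.64. The other 15 listed loci with windows, among them Lhx5, Nos1 and the Oas genes of antiviral defence, were below the filter, with no cell-type mean above 2.82.

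**Figure D2:**
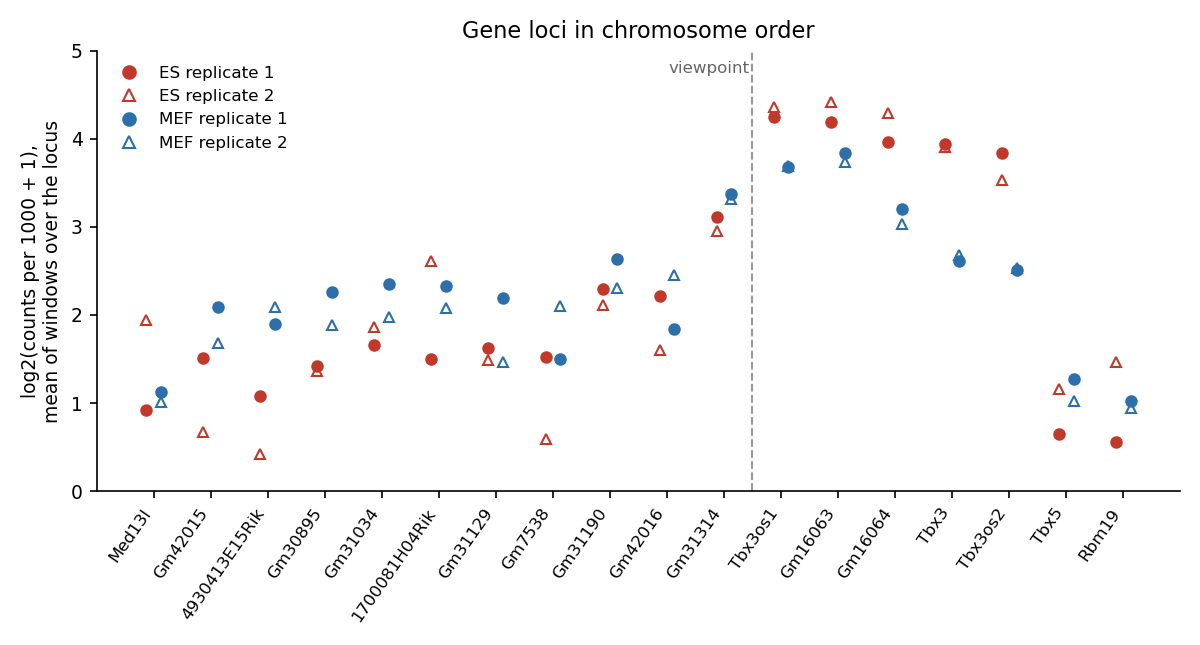
Level of 18 tested gene loci in chromosome order, as log2(counts per 1000 + 1), mean of the windows over each gene with 10 kb on each side, 1 symbol per library (ES red, MEF blue, open symbols replicate 2). The 5 loci from Tbx3os1 to Tbx3os2, right of the dashed viewpoint line, have both ES symbols above both MEF symbols, and Gm31314 and the loci left of it do not.

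In the interval between Med13l and the viewpoint the order of the mean log2 levels was the other way round. All 10 tested non-coding RNA loci there had a lower mean in ES cells, against 50.0% of all 34 tested loci. None passed the test, and neighbouring loci such as Gm30895 and Gm31034 share windows. The sign was not the same in every setting. The log2 difference was 0.023 for Gm42016 with edgeR and 0.032 for Gm31129 with limma-voom. Gm31314, the nearest at 54.0 kb from the viewpoint window and close in distance to Gm16064 on the other side, stood at 7.68 and 6.77 in ES and 9.37 and 8.98 in MEF. Its ES libraries lay below its MEF libraries, by -0.31 as a log2 difference (SE 0.17, limma adjusted p = 0.31). The widest difference was at 4930413E15Rik, with 1.11 and 0.338 against 2.73 and 3.25 (-1.25, SE 0.57, adjusted p = 0.18).

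Summed over distance bands, contacts in ES cells were higher around Tbx3 and lower in 2 farther bands. Of 14 bands (7 on each side, over windows that do not overlap), 3 were called by limma without trend, 21.4% of those tested, with 1 higher in ES (7.14%) and 2 higher in MEF (14.3%). From 50 to 100 kb on the higher-coordinate side, which holds Gm16064 and most of Tbx3, the sums were 75.9 and 106 per 1000 in ES and 40.4 and 34.6 in MEF. ES lay above MEF in both libraries (log2 difference 1.24, SE 0.22, adjusted p = 0.042). From 200 to 500 kb on the same side, which holds Tbx5, the sums were 12.9 and 15.8 against 25.4 and 25.1, and ES lay below MEF in both libraries (-0.78, SE 0.15, adjusted p = 0.042).

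The third band lay at the far end of the interval toward Med13l. From 500 to 1000 kb on the lower-coordinate side, the sums were 59.6 and 58.0 in ES and 111 and 108 in MEF. These 2 pairs did not overlap and each varied little (log2 difference -0.89, SE 0.10, limma adjusted p = 0.028), and the ES mean was 0.537 times the MEF mean. All 3 calls were lost without MEF replicate 1 (adjusted p = 0.32 for the last band) and without MEF replicate 2 (0.30), which leaves MEF with a single library. The band from 200 to 500 kb also lost its call with totals rescaled outside 50 kb (0.058) and with windows shifted by 5 kb (0.17). edgeR on the summed counts called 6 bands (42.9%), these 3 and 3 more. The 3 more were 20 to 50 kb (adjusted p = 0.025) and 100 to 200 kb (0.010) on the higher side, higher in ES, and 100 to 200 kb on the lower side, lower in ES (0.025). The first had 62.9 and 60.7 against 50.5 and 52.2, the second 45.6 and 29.0 against 18.8 and 20.8, and the last 37.7 and 39.6 against 49.5 and 47.7. None of these 3 overlapped between cell types, but most bands did not. Those that overlapped were 20 to 50 and 200 to 500 kb on the lower side, and 10 to 20, 500 to 1000 and 1000 to 2000 kb on the higher side. The lower bands at 10 to 20, 50 to 100 and 1000 to 2000 kb did not overlap and passed neither test.

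Bands nearest the viewpoint and beyond 1000 kb did not pass either test. At 10 to 20 kb the higher side had 48.3 and 29.0 in ES and 40.4 and 43.2 in MEF, with overlap. At 1000 to 2000 kb on the lower side, past Med13l, the sums were 15.7 and 34.3 in ES and 9.40 and 10.1 in MEF, with no overlap (limma adjusted p = 0.14). Only 18% of positions were listed in this band, each with counts in at least 3 libraries, and the part of this rule was not tested. The level of ES replicate 2 there rests on 13 counts, and without that library the band was called higher in ES cells (log2 difference 0.63, adjusted p = 0.016). Without ES replicate 2, 5 bands were called in all, 3 higher in ES and 2 in MEF.

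**Figure D3:**
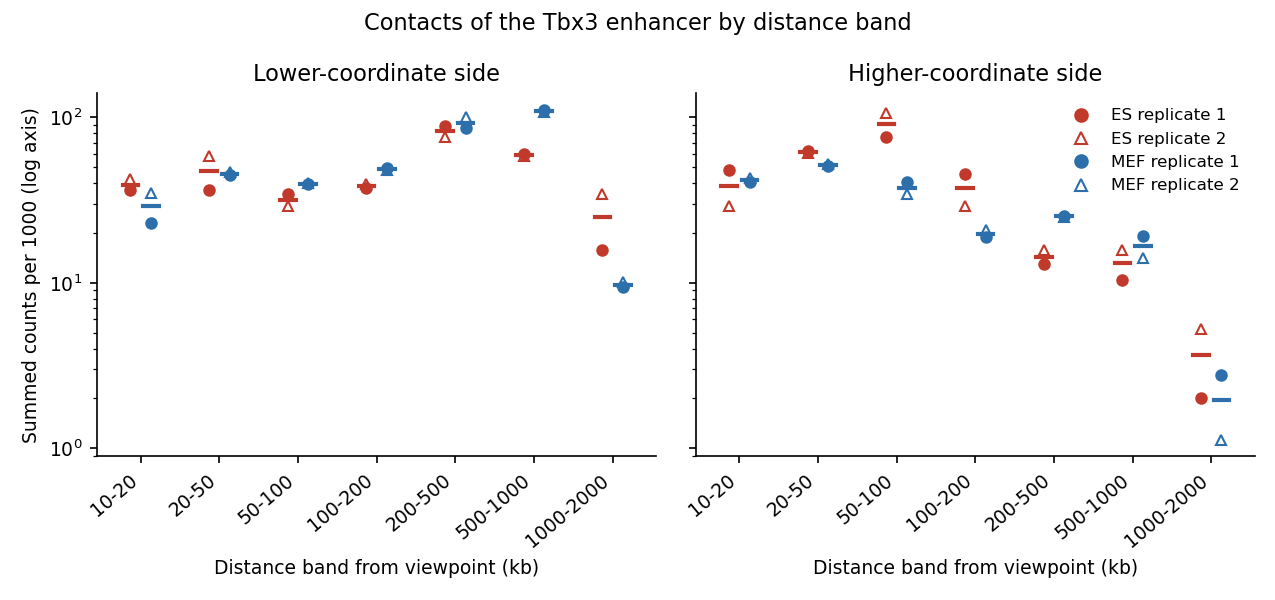
Summed counts per 1000 (log axis) in each distance band, lower-coordinate side left and higher-coordinate side right, 1 symbol per library (ES red, MEF blue, open symbols replicate 2) and a bar at each mean. ES lies above MEF from 50 to 200 kb on the higher side and below it from 500 to 1000 kb on the lower side.

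A larger share of ES contacts lay close to the viewpoint, at each distance limit from 50 to 500 kb. Within 200 kb of the viewpoint lay 45.8% and 46.2% of the library totals in ES and 37.7% and 37.7% in MEF, so the groups did not overlap. Windows listed here held 63.6 to 66.5% of each total, so the shares do not add to the whole. The means were 46.0% ± 0.245 (SD, n = 2) and 37.7% ± 0.0231 (SD, n = 2), a difference of 8.30 percentage points. An exact permutation test of 2 against 2 libraries, two-sided, cannot go below p = 0.333, and this difference gave that value. With both libraries of a cell type pooled, the shares were 45.8% (95% exact binomial interval 44.7 to 47.0%) and 37.7% (36.7 to 38.8%), intervals that cover counting error only, since PCR reads without molecular identifiers are not independent molecules.

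The gap was 3.42 points within 50 kb, 7.68 within 100 kb, 8.30 within 200 kb and 5.94 within 500 kb, and it shrank to 0.520 within 1000 kb. Most of its growth falls between 50 and 100 kb, where Gm16064 and most of Tbx3 lie, and its shrinkage between 200 and 1000 kb. Within 1000 kb the shares were 62.3% and 62.3% in ES and 61.5% and 62.1% in MEF. Beyond 1000 kb ES cells also had the larger share of listed contacts, 2.46% and 4.22% against 2.16% and 1.74%, without overlap. Windows are listed only where at least 3 libraries have counts, and ES replicate 2 had 16 counts that far out. The part of this listing rule in the difference was not tested. The median distance of all listed counts, the viewpoint window included, was 80 kb in each ES library and 100 kb in each MEF library. The slope of the decay on log axes, in contrast, was -1.24 and -1.13 in ES and -1.17 and -1.21 in MEF, and the groups overlapped (exact permutation p = 1).

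Counted out to 1000 kb, contacts leaned to the lower-coordinate side in both cell types, and more so in MEFs. From 10 to 1000 kb, the share on the higher-coordinate side, toward Tbx3 and Tbx5, was 46.7% and 45.8% in ES and 35.5% and 33.5% in MEF. All 4 libraries thus had more contacts toward Med13l than toward Tbx5, and the groups did not overlap. The difference was 11.7 percentage points (exact permutation p = 0.333, the smallest possible here). Pooled, the shares were 46.6% (95% interval 45.0 to 48.2%) and 34.2% (32.8 to 35.6%). For ES replicate 2 alone the interval was 38.9 to 52.7%, which includes balance. The lean in ES cells depended on the outer limit. From 10 to 500 kb the shares were 51.3% and 49.5% in ES, near balance, and 42.0% and 39.5% in MEF. Counts outside listed windows are left out, and the sides were not listed alike. Windows were listed at 76.7% of positions on the higher side and 100% on the lower from 200 to 500 kb, and at 36% and 82% from 500 to 1000 kb. The part of the listing in the lean was not tested.

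Split at 100 kb, the near part favoured the Tbx3 side in ES cells, at 64.0% and 60.8%, and was near balance in MEFs, at 53.1% (95% interval 49.4 to 56.7%) and 50.4% (47.7 to 53.0%). The far part favoured the other side in all libraries, at 27.1% and 25.8% against 20.5% and 18.96%. ES exceeded MEF in both parts without overlap. The ratio of higher-side to lower-side counts from 50 to 100 kb was 2.21 and 3.64 in ES and 1.03 and 0.860 in MEF. From 100 to 200 kb it was 1.21 and 0.733 against 0.380 and 0.435. From 200 to 500 kb the order turned, with 0.146 and 0.207 in ES and 0.296 and 0.251 in MEF. From 500 to 1000 kb ES was again above MEF, at 0.175 and 0.273 against 0.173 and 0.130, with ES replicate 1 and MEF replicate 1 nearly equal. The groups overlapped in none of these 4 bands, but they did in all the others, at 10 to 20, 20 to 50 and 1000 to 2000 kb.

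Mirrored windows at equal distance show the same at finer scale. Of 19 pairs within 200 kb, the pooled ES ratio was above the MEF ratio in 16. At 90 kb, ES cells had 150 counts on the Tbx3 side and 38 on the other, a ratio of 3.95 (95% exact interval 2.75 to 5.79). MEFs had 40 and 49 there, a ratio of 0.816 (0.524 to 1.27), which does not overlap the ES interval. At 100 kb the ratios were 2.26 (1.56 to 3.33) and 0.355 (0.231 to 0.533). At 20 kb they were 1.39 (1.07 to 1.80) and 1.28 (1.01 to 1.62), and the intervals overlapped.

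**Figure D4:**
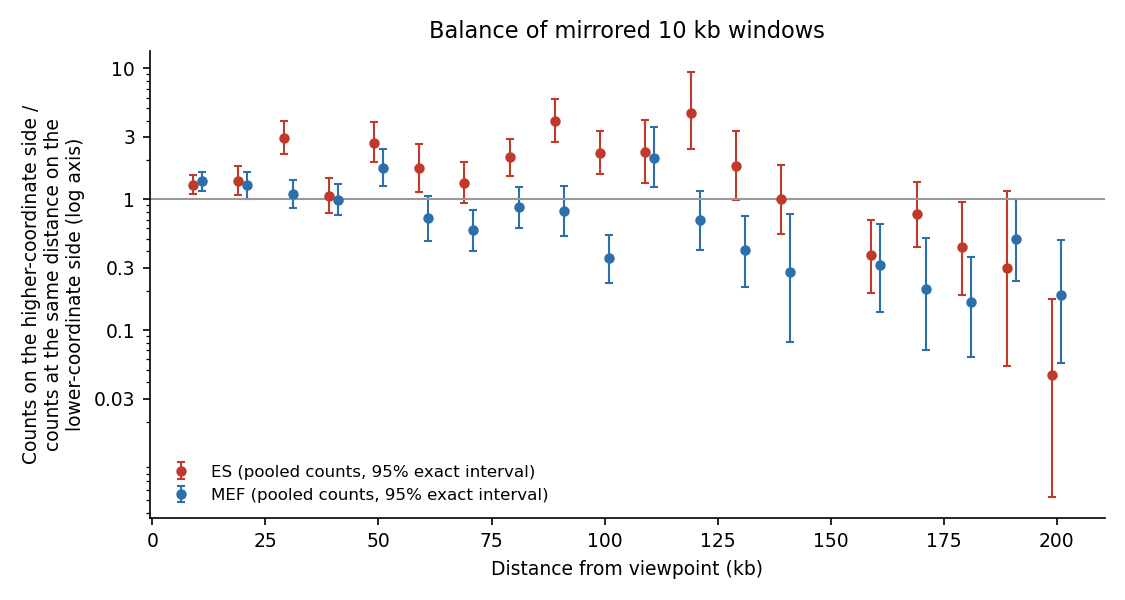
Ratio of pooled counts on the higher-coordinate side to those at the same distance on the lower-coordinate side (log axis) against distance in kb, ES red and MEF blue, with 95% exact intervals for counting error. From 60 to 100 kb ES ratios lie above 1 and MEF ratios below 1, and at 160 to 200 kb both lie below 1.

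Intervals bounded by genes, chosen after the profile was seen and so given without a test, show how far contacts spread. Values here are means per 10 kb position, in counts per 1000. Positions without a listed window were taken as 0, so intervals with few listed windows may be understated. From the viewpoint to Tbx3 they were 20.7 and 20.8 in ES and 15.7 and 15.7 in MEF. From Tbx3 to Tbx5 they were 4.18 and 2.64 against 1.77 and 1.94. Over Tbx5 they were 0.495 and 1.17 in ES and 0.968 and 0.998 in MEF, so the level fell on that side in both cell types, and beyond Tbx5 toward Rbm19 it was 0.428 and 0.229 against 0.772 and 0.773. As interval means, ES thus lay above MEF up to Tbx5, overlapped with it over Tbx5 and lay below it past the gene. Single windows did not all follow. At 200 kb, still short of Tbx5, ES libraries stood at 0.307 and 0 and MEF libraries at 0.697 and 0.562.

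Toward Med13l contacts reached farther. In the near part of the gene-poor interval, from its midpoint to the viewpoint, the levels were 5.30 and 5.53 in ES and 5.41 and 6.06 in MEF, and the groups overlapped. In the far part, from the end of Med13l to the midpoint, they were 1.72 and 1.35 against 3.00 and 3.04, without overlap. Over the body of Med13l they were 0.254 and 1.06 against 0.418 and 0.243. Windows were listed at 40 of 41 positions in the far part and at 9 of 20 over Med13l, so the drop includes positions taken as 0. The profile thinned at this gene in ES replicate 1 and in both MEF libraries. ES replicate 2 changed little, and its level over Med13l rests on 8 counts. In the 1 Mb below Med13l, 19 of 100 positions were listed, and levels were 0.160 and 0.343 in ES and 0.101 and 0.109 in MEF.

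**Figure D5:**
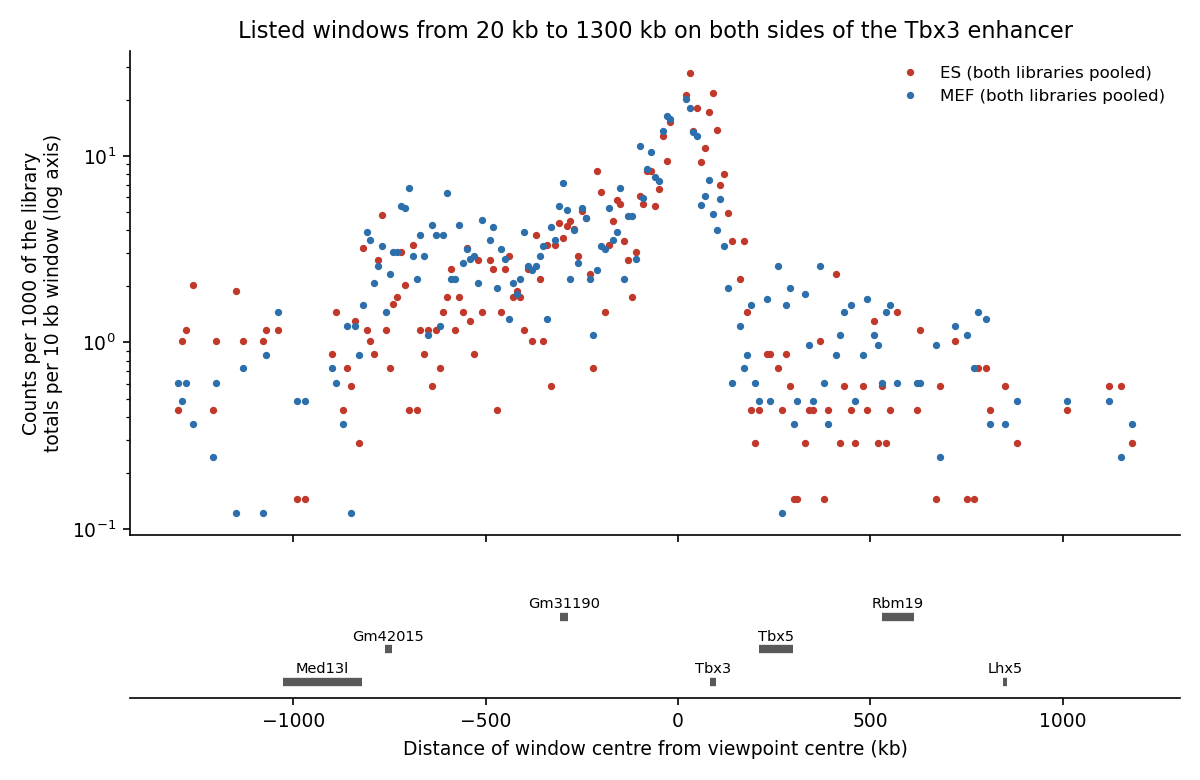
Pooled counts per 1000 per listed 10 kb window (log axis, windows with 0 counts in a cell type not drawn) against distance from the viewpoint in kb, ES red and MEF blue, with gene positions beneath. Contacts stay dense up to Med13l on the lower side and thin out past Tbx5 on the higher side, and most MEF points lie above ES points on the lower side between 500 kb and Med13l.

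Ranking contacts of the pooled counts describes the strongest windows at least 20 kb from the viewpoint, and no test is given because the values chose them. In ES cells the first was chr5:119668001-119678000, 86 kb away over the far end of Tbx3os1 and the near end of Tbx3, with 33.4 per 1000. Its libraries stood at 33.7 and 29.0, while the MEF libraries stood at 9.40 and 8.99. In the pooled counts, which come mostly from ES replicate 1, this window thus ranked above the nearer ES windows from 20 kb outward. ES replicate 2 had the other order, with 34.3 at 28 kb. The pooled 95% intervals of the windows at 86 and 28 kb overlapped (29.2 to 38.0 and 24.8 to 32.9). The following ES peaks were at 28 kb over Tbx3os1 (28.3 and 34.3 in ES, 13.6 and 22.3 in MEF) and at 49 kb over Gm16063 (20.3 and 26.4, against 18.5 and 10.1).

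In MEFs the first was chr5:119605001-119615000, 23 kb away at the near end of Tbx3os1, with 25.7 and 29.0 in ES and 22.6 and 22.1 in MEF. The next, 27 kb away on the other side, had 14.8 and 18.5 in ES and 21.2 and 22.1 in MEF. The window over Tbx3, at 85 kb, was the sixth in rank with 8.01 and 9.73. Of the 10 strongest peaks, 5 were on the Tbx3 side in ES cells and 3 in MEFs. Peaks at most 10 kb apart in both cell types numbered 6, 60% of each list. The shared ones include the neighbourhood of Tbx3 in both lists. Values fall with distance, so a shared rank does not show a contact above that fall. Against a fit that only falls with distance and is the same for both sides, the MEF window at 85 kb stood at 1.34 times. The ES window at 86 kb stood at 3.00 times its own fit. In windows over Tbx3 that do not overlap, going outward, pooled MEF levels were 1.09, 0.818 and 0.675 times the fit. Pooled ES levels were 1.55, 1.96 and 1.67 times. Whether MEFs held a Tbx3 contact above the fit was not tested.

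Ranked by the ratio to a fit that only falls with distance, the lists shared 3 peaks, 30% of each. In the ES list 9 were on the lower side and the one on the higher side was the Tbx3 window, at 3.00 times the fit. All 10 MEF peaks were on the lower side. Both sides share the fit, and far out most contacts lay on the lower side, so ratios there run higher on that side. The first MEF peak, chr5:118884001-118894000, 698 kb away, had 0.615 and 2.64 in ES and 8.01 and 6.93 in MEF, 3.06 times the fit. Another, chr5:119276001-119286000 over Gm31190 at 306 kb, had 5.99 and 0 against 8.71 and 7.86. The first ES peak, chr5:118812001-118822000, 770 kb away, rested on 33 counts in ES replicate 1 and 0 in ES replicate 2, so its rank comes from 1 library.

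Libraries resembled each other more over the whole profile than within the gene-poor interval. Over 184 windows that do not overlap, and on the log2 scale, Pearson's r was 0.81 between the MEF replicates, 0.61 between the ES replicates and 0.76 and 0.78 between ES replicate 1 and the MEF replicates. Within 100 to 800 kb on the lower side (70 windows), r lay between 0.18 and 0.33 over the 6 pairs of libraries. These are correlations across windows, which share distance and the position of restriction sites and are not replicates, and windows of that interval hold few counts, so what lowers r there was not tested.

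The other viewpoints of the series, read the same way, gave these values side by side, without a test. Within 200 kb lay 51.4% and 52.1% in ES and 43.1% and 45.2% in MEF at the Mycn enhancer. At the Ets1 promoter the shares were 35.5% and 35.1% against 45.7% and 45.3%. The Tbx3 enhancer had the order of the Mycn enhancer, ES above MEF, and the Ets1 promoter had the opposite order. Beyond 1000 kb, the Tbx3 enhancer had 35 windows that do not overlap, 28 of them on the lower side. The Mycn enhancer had 528 such windows and the Ets1 promoter 616. Their libraries held 13629 to 206874 counts, and windows are listed only where 3 libraries have counts, so the part of depth in that number was not tested.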

How the data were processed

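Contacts were measured by 4C-seq in 2 ES and 2 MEF libraries of 1 viewpoint. The deposited table holds CPM by name, in 10 kb windows that step by 1 kb. All deposited values (100% in each library) were whole multiples of 1 step within 0.01 count, and 1000 divided by the step was whole, so values are read as counts per 1000 of a library total, a scale worked out from the values. Per the submitters' processing notes, Bowtie 1.0.0, edgeR and mm10 were used, with roles not given in the sources used here.

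Windows in which 2 or more libraries reached 1 were tested with limma 3.58.1 (R 4.3.3, lmFit, eBayes with trend; bands without trend) on log2(value + 1), which understates changes of low values, two-sided, with Benjamini-Hochberg adjustment at 0.05. Alternatives on recovered counts were edgeR 4.0.16 (quasi-likelihood), DESeq2 1.42.0 and limma-voom. edgeR called 37 windows, of which 16 were shared with limma's 21. Gene bounds are from RefSeq (GRCm38.p6). Fits were tested on simulated data. Figures used matplotlib 3.10.9.

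Named items were up to 10 called regions per direction, the 10 strongest peaks of each cell type by value and by ratio, and 26 genes flanking the viewpoint. The viewpoint, members and gene list were chosen with earlier results of these data known.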

Additional observations from a re-analysis of the deposited data

How the results depend on the processing

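The main setting called 21 windows, 5 loci and 3 bands. For windows the count was 37 with edgeR, 4 with DESeq2, 36 with limma-voom, 43 median-centred, 12 with the ES libraries summed as 1, 0 with no trend, 4 in windows that do not overlap, and 7 to 570 with 1 library left out. For loci it was 0 without the trend, 3 with a 5 kb flank and 3 to 7 with 1 library left out. For bands it was 6 with edgeR and 0 to 8 with 1 library left out. With the replicate number as a block, 12 windows, 5 loci and 0 bands were called. Deviations of same-numbered libraries correlated at r = 0.034 over 121 windows, so the numbers are not taken as pairing. The share within 200 kb (8.12 to 8.47 points with 1 library left out), the side balance (10.7 to 12.7) and the shared peaks by value (6 to 7) kept their direction or stayed within their spread. Shared peaks by ratio were 3, and 2 to 5 with 1 library left out. The difference in slope, 0.0048, reversed to -0.014 with windows shifted by 5 kb and ran from -0.050 to 0.060 with 1 library left out. It was -0.050 without ES replicate 2 and -0.016 without the second MEF library. The cause was not tested. Depth limits ES replicate 2 most.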
